A study of Caenorhabditis elegans with 8 samples.

Results

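The genes described here are the UDP-glycosyltransferases (ugt) and the glutathione transferases (gst) of Caenorhabditis elegans, taken by name alone. A gene was included when its WormBase symbol started with ugt- or gst-. The count table of 20389 genes held 111 such genes, 67 ugt and 44 gst, and all 111 were annotated as protein coding. The rule used no measured value, but the members were chosen with earlier results of these data known.

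Both families belong to the conjugating phase of detoxification, in which a polar group is joined to a lipophilic molecule so that it can be exported from the cell. UDP-glycosyltransferases transfer a sugar from a UDP-sugar donor, and in nematodes glucose is the usual sugar. Glutathione transferases join the thiol of glutathione to electrophiles, including products of lipid peroxidation. In worms both families are large, many of their members are expressed in the intestine, and several are induced by xenobiotics and oxidants through factors such as SKN-1. The substrates of most single members are not known.

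All 8 libraries came from strain VC199, which carries the deletion allele sir-2.1(ok434) on chromosome IV, so the comparison is between stages of 1 mutant strain and no wild-type library entered it. The 4 embryo libraries were poly(A) RNA of mixed-stage embryos obtained by bleaching parents of different ages. The 4 larvae libraries came from animals that hatched overnight and then grew for 24 h on plates, labelled L3 in the sample records and described as L2/L3 in the study's methods. Whole animals were extracted, so a lower share of cells of a tissue and less RNA per cell cannot be told apart. The library names carry 1 prefix in every embryo sample and another in every larvae sample, so the library series and the stage cannot be told apart. The names of embryo replicate 1 and larvae replicate 2 each join 2 library identifiers. The replicates are numbered in the labels, which do not say how the cultures were separated, so the p-values measure the spread between these samples.

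Gene counts per library ran from 13687095 in larvae replicate 1 to 31292935 in embryo replicate 1. All 5 early embryo markers (end-1, end-3, tbx-37, tbx-38 and ceh-51) fell in larvae, from a summed 54.3 to 77.0 TPM in embryos to 0.0511 to 0.535 TPM. TPM is a level corrected for gene length and for the library's total. The hatching protease gene hch-1 ran from 344 to 539 TPM in embryos and from 0.0192 to 1.06 TPM in larvae, which sets the stages apart in every library. Of 5 intestine markers measured, 4 rose in larvae (ges-1, ifb-2, act-5 and vha-6) and elt-2 did not pass the test. With library totals elt-2 was called lower in larvae (log2 fold change -0.74, edgeR, adjusted p = 0.00138), as it was in log2(TPM + 1) (limma, adjusted p = 0.000126). The summed level of all 5 was 501 to 770 TPM in embryos and 1263 to 2174 TPM in larvae. The 5 adult markers were low but uneven, at a summed 0.384 TPM in embryo replicate 1 and 43.2 TPM in embryo replicate 2, where vit-2 reached 2003 counts and the remaining embryos had 5 to 106. In larvae replicates 1 to 4 they summed to 12.6, 1.68, 4.64 and 1.93 TPM. The 2 larval moult markers (mlt-8 and mlt-10) were not called. They summed to 323 to 411 TPM in embryos and to 387, 139, 271 and 138 TPM in larvae replicates 1 to 4. The 2 sperm markers msp-3 and msp-10 had at most 3 counts in any library. Their summed level was 8.57 TPM in embryo replicate 4, 6.39 TPM in larvae replicate 3 and 0.0244 to 0.965 TPM elsewhere. msp-10 had 0 counts throughout but up to 7.45 TPM, so low counts do not show that these transcripts were absent. Reads were counted for sir-2.1 in all 8 libraries (570 to 2424). A gene-level count includes the part of the gene that the allele leaves, so it does not check the genotype.

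The ugt family was a small and steady part of the embryo transcriptome and a more variable part of the larval one. Its 67 members summed to 356, 346, 306 and 327 TPM in embryo replicates 1 to 4, a mean of 334 ± 22.1 (SD, n = 4). In larvae replicates 1 to 4 they summed to 466, 520, 301 and 377 TPM, a mean of 416 ± 96.6 (SD, n = 4). Larvae replicate 3 lay below all 4 embryo libraries, so the stages overlapped on this scale. The 44 gst genes summed to higher levels than the 67 ugt genes in every library, at 934, 672, 578 and 709 TPM in embryos and 663, 834, 556 and 1259 TPM in larvae. The gst means were 723 ± 151 TPM in embryos and 828 ± 310 TPM in larvae (SD, n = 4 each). The excess of the larval gst mean rested on larvae replicate 4, because the ratio of larvae to embryos was 1.15 with it and 0.947 without it.

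The picture depended on the scale. In CPM, counts brought to a common library size without regard to gene length and here scaled with the trimmed mean of M values (TMM), as in the test used below, the ugt sum was 420 ± 14.4 CPM in embryos and 1061 ± 192 CPM in larvae, and the lowest larval library (801) stood above the highest embryo library (440). The gst sum on the same scale was 383 ± 48.7 CPM in embryos and 788.5 ± 316 CPM in larvae, again with no overlap (445 at most against 557 at least). TMM assumes that most genes are unchanged, and under it the median of the log2 fold changes, larvae over embryos, was -0.03 over the genes tested. With library totals alone that median was -0.53, and in TPM it was -0.49. A change of a member is therefore read here against these medians.

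**Figure D1:**
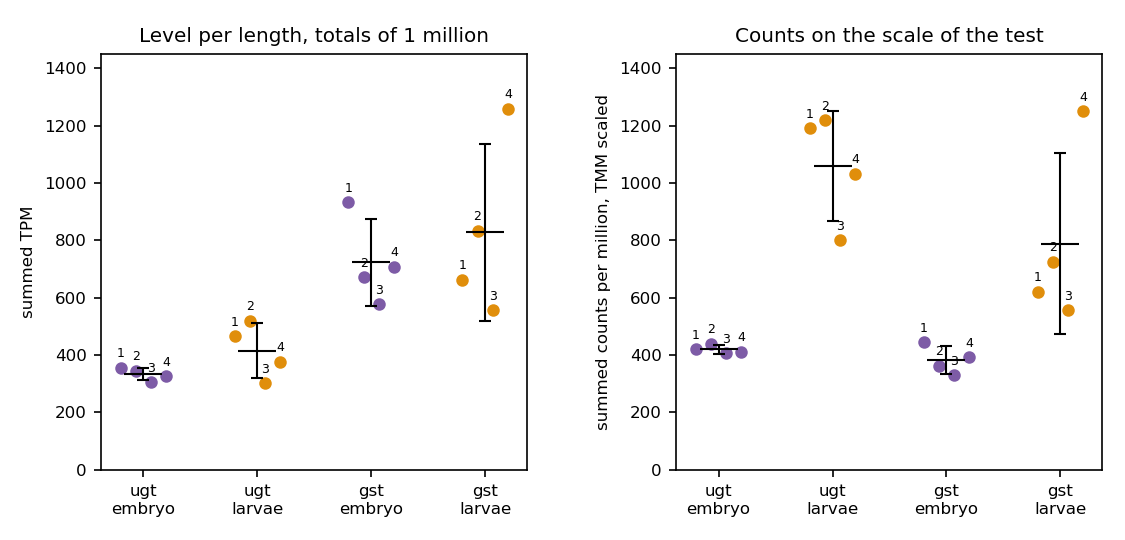
Summed level of all 67 ugt and all 44 gst genes in each library, in TPM at left and in TMM-scaled CPM at right; numbers beside points are replicates, and bars are the mean ± SD of 4 libraries. On the TPM scale the stages overlapped in both families, and larvae replicate 4 reached 1259 TPM for gst, while on the right-hand scale every larvae library stood above every embryo library.

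The stage comparison asks which of these enzymes are expressed at a different level once the animal has hatched and begun to feed. Both families moved mostly upward, the ugt genes more than the gst genes. The test was edgeR's quasi-likelihood test with Benjamini-Hochberg adjustment over 13571 genes, and a gene was called at an adjusted p under 0.05. Of 58 ugt genes tested, 45 were higher in larvae (77.6%), 5 were lower (8.62%) and 8 did not pass. Of 31 gst genes tested, 19 were higher (61.3%), 3 were lower (9.68%) and 9 did not pass. Over all genes tested, 36.9% were called higher and 37.2% lower. The median log2 fold change was 2.29 for the ugt genes and 1.19 for the gst genes, against -0.03 for all genes tested. Whether the 2 families differ from each other was not tested.

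Rises were often large. A log2 rise of at least 2 was called for 30 ugt and 12 gst genes, against 16.9% of all genes tested, and a log2 rise of at least 4 for 10 ugt and 3 gst genes, against 6.27%. Of those 10, 4 had no embryo library above 3 counts (ugt-30, ugt-36, ugt-40 and ugt-42), and with these set to their bound 6 remained, while the count at 2 or more and both medians did not move. Every larvae library was above every embryo library for 39 tested ugt and 17 tested gst genes, against 33.3% of all genes tested. The reverse held for 5 ugt and 2 gst genes, against 35.6%. A gene could pass the filter on low counts through 1 stage alone, so these numbers describe the 89 members tested and not all 111.

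Many calls depended on the scale. With library totals alone, 38 of the 45 ugt and 15 of the 19 gst genes called higher kept that call, where 27.1% of all genes were called higher and 48.7% lower. With limma on log2(TPM + 1), 31 and 13 of them kept it, where 21.3% of all genes were called higher and 51.6% lower. Among those called higher with TMM, 4 ugt genes (ugt-5, ugt-45, ugt-60 and ugt-61) and 3 gst genes (gst-1, gst-39 and gst-40) had a negative fold change in TPM. Each of them lay above the median of all genes tested on that scale (-0.49). With ugt-24, ugt-49, ugt-54 and gst-22, whose fold change stayed positive, these 7 ugt and 4 gst genes were called higher with TMM and on neither of these scales, at log2 fold changes of 0.50 to 1.21. Larger rises also lost the call in TPM, though not with library totals, among them ugt-37 (3.63 with TMM), ugt-44 (2.50), ugt-63 (2.41) and ugt-7 (1.79). The 5 ugt and 3 gst genes called lower were called lower on all 3 scales. Relative to the median of all genes, the ugt median was 2.33 log2 units higher with TMM, 2.31 with library totals and 1.09 in log2(TPM + 1). The gst median was 1.22, 1.19 and 0.677 higher. In log2(TPM + 0.1) the ugt median was 1.81 higher and the gst median 1.26 higher. The TPM fits covered 63 ugt and 43 gst genes, against 58 and 31 with TMM and with library totals.

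**Figure D2:**
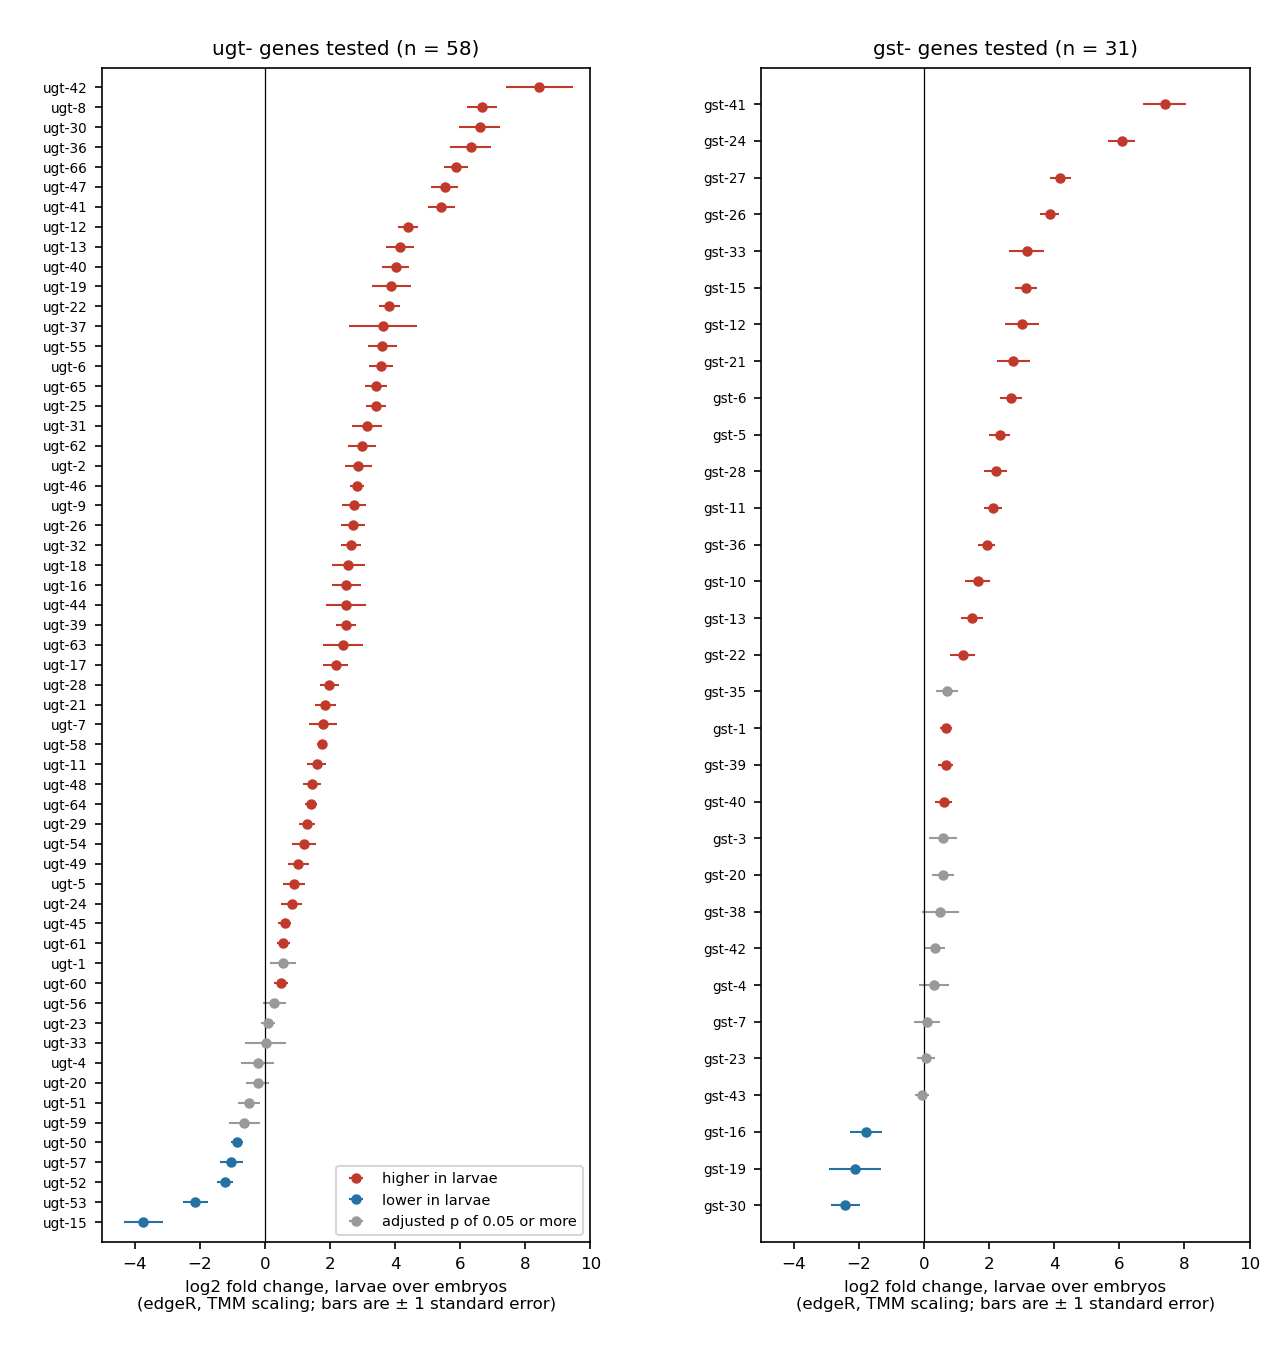
Log2 fold change of each tested member, larvae over embryos, from edgeR with TMM scaling, with bars of ± 1 standard error; red points were called higher in larvae, blue points lower, and grey points had an adjusted p of 0.05 or more. Of 58 ugt genes 45 are red and 5 blue, and of 31 gst genes 19 are red and 3 blue. The sizes of ugt-30, ugt-36, ugt-40, ugt-42 and ugt-15 depend on a prior count, because 1 stage is at or under 3 counts per library.

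In embryos the ugt transcripts were concentrated in a few genes. A single gene, ugt-50 (chromosome X, 12691538 to 12695585, WS220), made up 30.4% of the ugt TPM, and the top 4 genes (ugt-50, ugt-57, ugt-23 and ugt-58) made up 55.3%. It was at 92.5, 105, 90.3 and 118 TPM in embryo replicates 1 to 4 and at 25.1, 24.3, 26.8 and 14.9 TPM in larvae. All larval values were below all embryonic ones. Its log2 fold change was -0.85 ± 0.19 (SE) in counts (edgeR, adjusted p = 0.00131) and -2.13 in log2(TPM + 1). This gap between the scales is wider than that of the median gene, which went from -0.03 to -0.49. The cause of that gap was not tested. ugt-50 overlaps nhr-26 in the annotation. Without ugt-50, the summed ugt TPM of larvae was 1.69 times that of embryos, against 1.25 times with it.

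The other 4 ugt genes that fell in larvae were ugt-15, ugt-52, ugt-53 and ugt-57. ugt-53 (chromosome V) was at 15.4, 17.5, 12.6 and 11.3 TPM in embryos and at 1.62, 1.27, 0.786 and 3.53 TPM in larvae. The fitted log2 fold change was -2.13 ± 0.40 (SE; edgeR, adjusted p = 0.000413), with no overlap between stages, and it was -2.74 without larvae replicate 4. ugt-52 (chromosome IV) was almost constant in embryos, at 9.12 to 10.8 TPM, and lay at 1.34 to 3.19 TPM in larvae. Its log2 fold change was -1.22 ± 0.26 (adjusted p = 0.00103). ugt-57 (chromosome X) was at 33.0 to 39.6 TPM in embryos and 4.30 to 17.8 TPM in larvae, with a log2 fold change of -1.02 ± 0.36 (adjusted p = 0.0219). That call was lost without embryo replicate 3 (adjusted p = 0.0581) or without larvae replicate 2 (0.0556), although the fold change stayed negative. ugt-57 overlaps the gene F01E11.8.

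ugt-15, by contrast, was nearly silent in larvae. It had 57, 17, 13 and 19 counts in embryo replicates 1 to 4 and 2, 1, 0 and 1 counts in larvae. With larvae set to a floor of 3 counts per library, it was at least 3.56-fold lower in larvae (edgeR, adjusted p = 0.000129).

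The opposite pattern, close to silence in embryos with reads in every larvae library, was found in several ugt genes on chromosome V. ugt-42 had no counts in any embryo library and 21, 34, 10 and 64 counts in larvae replicates 1 to 4, which is at least 12.2-fold higher in larvae against a floor of 3 counts per library. ugt-30 had 1, 0, 0 and 0 counts in embryos and 19, 36, 24 and 13 in larvae, at least 8.78-fold higher. ugt-36 had 0, 0, 0 and 1 counts in embryos and 16, 21, 23 and 16 in larvae, at least 7.45-fold higher. These 3 genes passed edgeR's test (adjusted p = 7.28e-05, 2.0e-06 and 3.14e-06), and their larval levels stayed low, at 0.237 to 1.37 TPM.

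Other ugt genes rose from a low embryonic level to a higher larval one. ugt-8 (chromosome V) had 3, 4, 1 and 1 counts in embryos and 79, 305, 117 and 110 in larvae, with a log2 fold change of 6.67 ± 0.47 (SE; edgeR, adjusted p = 1.88e-07). ugt-66 (chromosome III) was at 0.208 to 0.302 TPM in embryos and at 5.60, 15.1, 7.85 and 6.34 TPM in larvae. The log2 fold change was 5.86 ± 0.37 (adjusted p = 8.53e-08). ugt-47 (chromosome V, overlapping srd-49) was at 0.037 to 0.279 TPM in embryos and 3.04 to 5.67 TPM in larvae, with a log2 fold change of 5.52 ± 0.42 (adjusted p = 3.33e-07). No larval value of these genes reached down to an embryonic one.

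In larvae the ugt transcripts were spread over more genes. The number of ugt genes with a mean of at least 1 TPM was 35 in embryos and 49 in larvae, and the number with at least 10 TPM was 5 and 11. The top larval genes were ugt-22, ugt-58, ugt-62 and ugt-46, which together made up 35.1% of the ugt TPM. ugt-22 (chromosome IV, 13639242 to 13644377, overlapping srz-29) led with 11.3%. It was at 9.89, 3.97, 4.51 and 5.51 TPM in embryos and at 71.4, 43.8, 32.1 and 40.5 TPM in larvae. Its log2 fold change was 3.83 ± 0.32 (SE; edgeR, adjusted p = 6.75e-07), and the stages did not overlap.

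Of the other 3, ugt-58 was the steadiest and ugt-62 the most uneven. ugt-58 (chromosome II, 9584319 to 9586726) is the only ugt gene on that chromosome, and it was among the top 4 in both stages. It was at 19.04 to 22.0 TPM in embryos and at 41.2, 45.3, 31.3 and 33.0 TPM in larvae, with a log2 fold change of 1.75 ± 0.15 (adjusted p = 1.02e-06). ugt-46 (chromosome X) rose from 5.25 to 10.3 TPM in embryos to 22.9 to 37.7 TPM in larvae, a log2 fold change of 2.84 ± 0.21 (adjusted p = 3.0e-07). ugt-62 (chromosome III) was at 12.2, 2.96, 5.55 and 6.97 TPM in embryos and at 24.2, 61.0, 21.6 and 16.5 TPM in larvae. The fitted log2 fold change was 2.98 ± 0.44 (adjusted p = 6.55e-05), and larvae replicate 2 stood well above the other larvae.

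ugt-23 (chromosome X), among the top 4 in embryos, gave no call in counts. It was at 23.7, 32.9, 31.2 and 22.4 TPM in embryos and at 17.7, 18.9, 11.0 and 18.6 TPM in larvae. Its log2 fold change was 0.09 ± 0.22 in TMM-scaled counts (edgeR, adjusted p = 0.724) and -0.71 in log2(TPM + 1), where limma called it lower (adjusted p = 0.0104).

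The abundant gst genes were expressed in both stages. In embryos gst-7, gst-1, gst-20 and gst-19 made up 62.5% of the gst TPM, and in larvae gst-1, gst-20, gst-7 and gst-27 made up 43.6%. gst-1 (chromosome III, 9058826 to 9060106), a pi-class enzyme, led in larvae with 13.1%. It was at 125, 111, 96.7 and 139 TPM in embryos and at 102, 101, 87.6 and 144 TPM in larvae, ranges that overlap. TMM-scaled counts gave a log2 fold change of 0.67 ± 0.19 (SE; edgeR, adjusted p = 0.00666), library totals gave 0.16 (adjusted p = 0.433), and log2(TPM + 1) gave -0.13 (limma, adjusted p = 0.512). Its sign therefore depended on the scale. On each scale it lay above the median of all genes tested (-0.03, -0.53 and -0.49).

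gst-7 and gst-20 were also abundant but less steady in larvae than gst-1. gst-7 (chromosome II, 4882066 to 4883356) led in embryos with 20.9% of the gst TPM. It was at 120, 174, 127 and 184 TPM in embryos and at 42.7, 84.1, 48.6 and 179 TPM in larvae. The high larval value came from replicate 4, and the log2 fold change was 0.09 ± 0.40 (edgeR, adjusted p = 0.849) with it and -0.56 without it (adjusted p = 0.0632). In log2(TPM + 1) gst-7 was at -0.98, where limma called it lower (adjusted p = 0.0499). gst-20 (chromosome II) was at 104 to 125 TPM in embryos and at 49.0, 97.1, 62.9 and 178 TPM in larvae, again highest in replicate 4. The log2 fold change was 0.58 ± 0.34 (adjusted p = 0.136). It was 0.06 without larvae replicate 4 and 0.80, past the threshold, without larvae replicate 1 (adjusted p = 0.0194).

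The gst genes with a known role differed from each other. gst-4, widely used as a reporter of SKN-1 activity, was at 15.2, 5.53, 2.54 and 4.0 TPM in embryos and at 6.43, 4.60, 5.39 and 2.70 TPM in larvae. The stages overlapped, and the log2 fold change was 0.31 ± 0.47 (edgeR, adjusted p = 0.559). Without embryo replicate 1 it was 1.004 (adjusted p = 0.0291). gst-4 overlaps dhs-12 in the annotation. gst-42, of the maleylacetoacetate isomerase family that acts in tyrosine breakdown, was at 37.2 to 61.8 TPM in embryos and 18.6 to 53.8 TPM in larvae, with a log2 fold change of 0.34 ± 0.32 (adjusted p = 0.355).

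gst-5 and gst-10, which conjugate the lipid peroxidation product 4-hydroxynonenal, both rose in TMM-scaled counts. gst-5 (chromosome II, overlapping nos-1) was at 35.2, 12.6, 11.8 and 16.0 TPM in embryos and at 56.9, 49.9, 34.2 and 66.1 TPM in larvae. Its log2 fold change was 2.33 ± 0.32 (SE; edgeR, adjusted p = 4.23e-05). gst-10 (chromosome V) was at 51.7, 28.5, 34.7 and 40.04 TPM in embryos and at 50.2, 38.8, 29.8 and 109 TPM in larvae, with a log2 fold change of 1.65 ± 0.38 (adjusted p = 0.00183). Without larvae replicate 4 the value of gst-10 was 1.06 (adjusted p = 0.00146). In TPM the stages of both overlapped, and in log2(TPM + 1) limma did not call gst-10 (0.40, adjusted p = 0.336).

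The strongest gst rises came from genes that were scarce in embryos. gst-41 (chromosome V, 7398446 to 7399283) had 4, 0, 0 and 0 counts in embryos and 37, 158, 138 and 123 in larvae, and it passed the test (edgeR, adjusted p = 1.26e-06). Its fitted log2 fold change of 7.40 rests on 4 embryonic counts in 1 library, and it lay between 7.04 and 9.99 when single libraries were left out. gst-24 (chromosome II, 13610371 to 13611272) was at 1.37, 0.946, 0.733 and 1.11 TPM in embryos and at 18.5, 54.8, 27.5 and 58.3 TPM in larvae. The fitted log2 fold change was 6.08 ± 0.42 (SE; adjusted p = 1.70e-07).

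gst-26 and gst-27, neighbours on chromosome II, rose alike. gst-27 was at 11.1, 6.31, 4.19 and 5.37 TPM in embryos and at 74.2, 59.8, 42.1 and 93.9 TPM in larvae. gst-26 was at 9.38, 4.71, 5.30 and 4.89 TPM in embryos and at 54.5, 45.7, 28.4 and 66.0 TPM in larvae. Their log2 fold changes were 4.19 ± 0.33 and 3.86 ± 0.31 (edgeR, adjusted p = 4.17e-07 and 4.75e-07). Both were highest in embryo replicate 1 and in larvae replicate 4 of their stages. At lower levels, gst-15 rose by 3.13 ± 0.34 (adjusted p = 6.24e-06) and gst-33 by 3.15 ± 0.53 (adjusted p = 0.000187) on the log2 scale, the latter from 1 to 10 counts in embryos to 13 to 27 counts in larvae. Without embryo replicate 1, which held the 10 counts, gst-33 was at 3.87.

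Only 3 gst genes were called lower in larvae, 9.68% of those tested against 37.2% of all genes. All 3 lie on chromosome II, as do 16 of the 31 gst genes tested and 10 of the 19 called higher. gst-30 had 51, 33, 21 and 24 counts in embryos and 4, 7, 1 and 2 in larvae, with a log2 fold change of -2.41 ± 0.43 (SE; edgeR, adjusted p = 0.000329). gst-16 was at 28.3, 15.7, 8.20 and 8.21 TPM in embryos and at 0.785, 3.55, 1.46 and 3.66 TPM in larvae. Its log2 fold change was -1.77 ± 0.49 (adjusted p = 0.00636). Neither overlapped between stages.

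gst-19 was uneven in both stages. It was at 171, 50.4, 18.9 and 22.6 TPM in embryo replicates 1 to 4 and at 2.61, 3.52, 3.27 and 21.9 TPM in larvae. Embryo replicate 1 stood above the other embryos and larvae replicate 4 above the other larvae, where its value fell within the embryonic range. The log2 fold change was -2.11 ± 0.80 (edgeR, adjusted p = 0.0312). The call was lost without embryo replicate 1 (-1.14, adjusted p = 0.178), without larvae replicate 2 (-1.84, 0.0737) or without larvae replicate 3 (-1.86, 0.0747), while the sign stayed negative in every case. Without larvae replicate 4 the value was -3.47 (adjusted p = 0.000843).

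**Figure D3:**
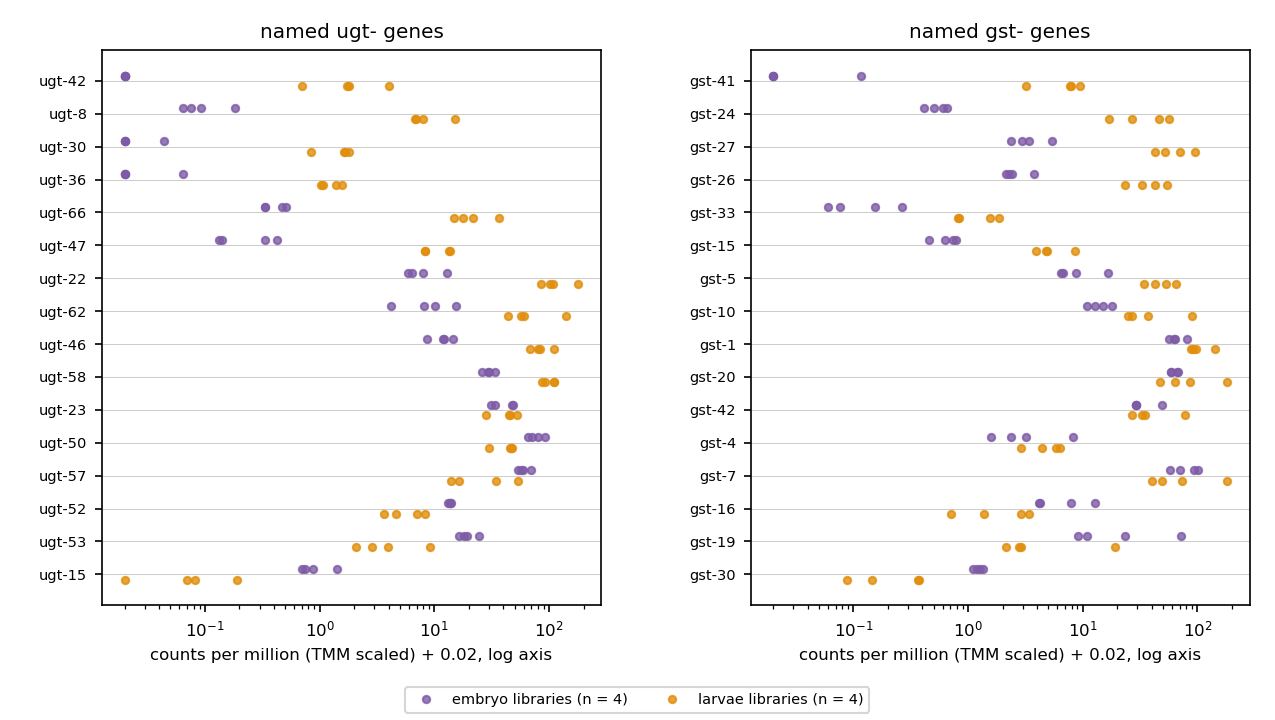
TMM-scaled CPM in each library for the 16 ugt and 16 gst genes named by rule, ordered by log2 fold change, with 0.02 added so that zeros can be drawn on the log axis; purple points are the 4 embryo libraries and orange points the 4 larvae libraries. The stages are fully apart at the top of both panels, and gst-19, gst-7 and gst-4 near the bottom of the right panel overlap.

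The families sit in different parts of the genome. Of 67 ugt genes 42 lie on chromosome V (62.7%), and of 44 gst genes 25 lie on chromosome II (56.8%). Runs of at least 3 members of 1 family, with no more than 10 kb between one and the next, numbered 9 and held 25 ugt and 25 gst genes. Neighbouring members of a family can be close in sequence, and reads that aligned to more than 1 place were not counted for any gene.

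In both of the largest ugt runs every tested gene rose. A run of 8 on chromosome V (4887159 to 4911444, WS220) held ugt-12, ugt-11, ugt-9, ugt-10, ugt-67, ugt-8, ugt-14 and ugt-13 in that order, and its 5 tested members all rose, by 1.59 to 6.67 on the log2 scale. A run of 6 on the same chromosome (7139464 to 7169186) held ugt-40, ugt-37, ugt-38, ugt-39, ugt-41 and ugt-36, and its 5 tested members rose. On the log2 scale ugt-39, ugt-37 and ugt-41 rose by 2.50, 3.63 and 5.42. No embryo library had more than 3 counts of ugt-36 or ugt-40, which were at least 7.45-fold and 8.84-fold higher in larvae. The value of ugt-37 came from larvae replicate 4, which had 396 counts where the rest had 11 to 28, and its fitted rise of 3.63 was 0.998 without that library, where it was still called. ugt-37 and ugt-40 overlap each other. In the run of 3 made of ugt-18, ugt-16 and ugt-15, the first and second rose (2.57 and 2.50) while ugt-15 fell.

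Only 1 of the 4 gst runs held calls in both directions, a run of 9 on chromosome II (13608115 to 13630817) made of gst-20, gst-24, gst-15, gst-12, gst-14, gst-16, gst-19, gst-17 and gst-18. Within these 22.7 kb gst-24, gst-15 and gst-12 rose by 6.08, 3.13 and 3.01 on the log2 scale, gst-16 and gst-19 had values of -1.77 and -2.11, and gst-20 did not pass the test. A run of 9 farther along the same chromosome (15163732 to 15185309) began with gst-26, gst-27 and gst-28, which rose by 3.86, 4.19 and 2.202, and of its other 6 members only gst-39 (0.67) was called and 4 were not tested.

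**Figure D4:**
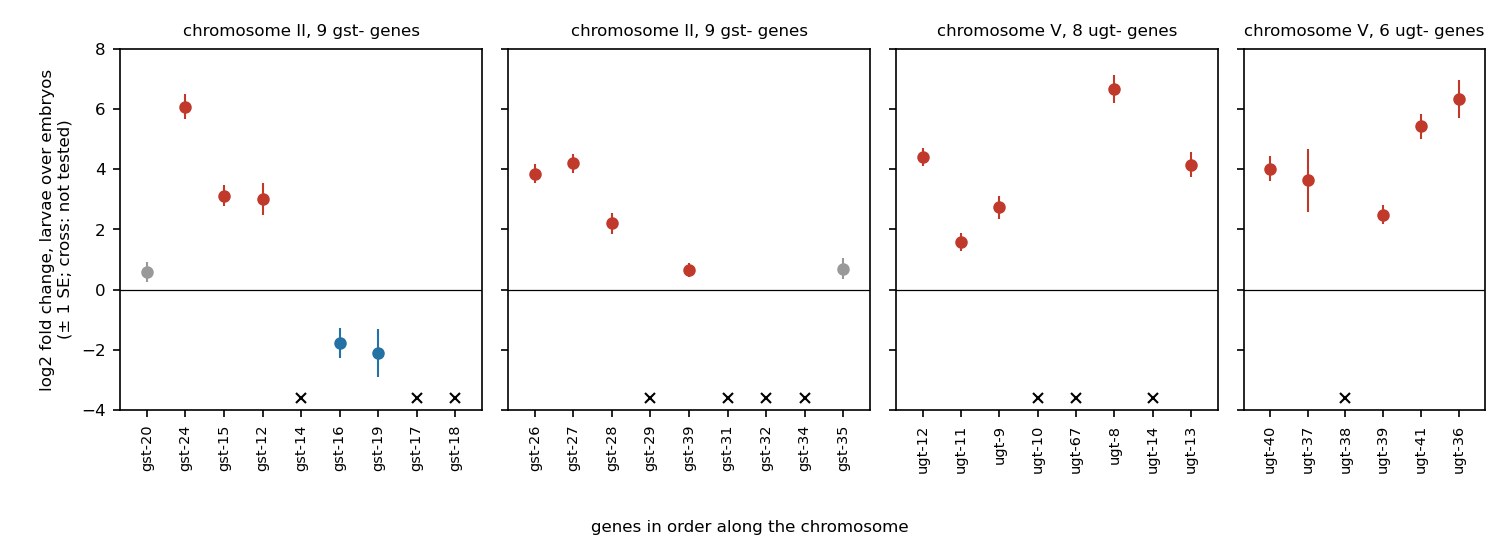
Log2 fold change, larvae over embryos (edgeR, ± 1 standard error), of the genes of the 4 runs with the most members, in order along the chromosome; red is called higher, blue lower, grey not called, and a cross marks a gene not tested. In both ugt runs the 5 tested genes are red, and in the first gst run gst-24 at 6.08 and gst-19 at -2.11 lie within 22.7 kb of each other. The sizes of ugt-36 and ugt-40 depend on a prior count.

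The members varied more between replicates than most genes. The median coefficient of variation over tested members was 28.5% for ugt and 30.1% for gst in embryos, against 19.7% for all genes tested, and 43.1% and 39.4% in larvae, against 21.9%. These coefficients include counting error, which weighs more at low counts, and the comparison was not matched for level. In the gst family the spread had a direction. Embryo replicate 1 was the highest embryo library for 24 of 31 tested gst genes and 28 of 58 tested ugt genes, against 35.1% of all genes tested. The median ratio of embryo replicate 1 to the mean of the other 3 embryo libraries was 1.66 for gst, 1.23 for ugt and 0.995 for all genes.

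Larvae replicate 4 was the highest larvae library for 19 of 31 tested gst genes, with a median ratio of 1.54 to the other larvae, against 24.6% and 0.994 for all genes. For the ugt genes the median ratio of that library was 0.871, so it was high in 1 family and not in the other. Larvae replicate 3 was low in both families, with median ratios of 0.634 for ugt and 0.652 for gst. The libraries with high gst levels were also those with high intestine markers, whose summed level was 770 TPM in embryo replicate 1 against 501 to 594 TPM in the other embryos, and 2174 TPM in larvae replicate 4 against 1263 to 1467 TPM in the other larvae. Most of that sum was act-5 (505 TPM in embryo replicate 1 and 1650 TPM in larvae replicate 4). elt-2 barely differed in TPM, at 19.9 in embryo replicate 1 against 19.2 to 19.3 in the other embryos. In TMM-scaled CPM it was lowest in embryo replicate 1, at 25.5 against 27.7 to 28.4. In larvae replicate 4 it was at 8.88 TPM against 7.52 to 11.0 TPM in the other larvae. Embryo replicate 1 was also the lowest embryo library for the summed early embryo markers (54.3 TPM against 60.6 to 77.0) and for the summed germline markers (59.5 TPM against 96.2 to 100.4). The part of these in the result was not tested. Without embryo replicate 1, 23 of the 34 gst genes then tested were called higher (67.6%, against 37.6% of all genes) and 2 lower. Without larvae replicate 4, 18 of 31 were higher (58.1%, against 35.5%) and 3 lower.

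**Figure D5:**
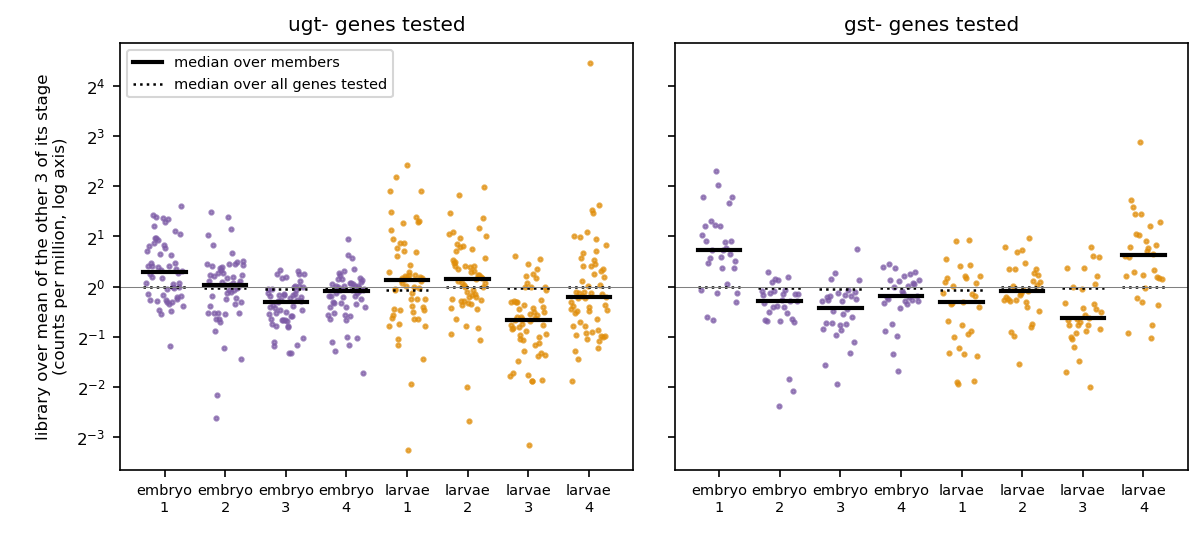
Each point is a tested member in 1 library, as its TMM-scaled CPM over the mean of the other 3 libraries of the same stage on a log axis (zeros not drawn); solid bars are the median over the family and dotted bars the median over all genes tested. For gst the bars stand at 1.66 in embryo replicate 1 and 1.54 in larvae replicate 4, while the medians of all genes stay between 0.955 and 1.0.

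The 22 members that were not tested did not pass the filter on counts. Their highest stage mean was 2.58 TPM (gst-14 in larvae), and no library gave any of them more than 63 counts. ugt-35 had no counts in any library, each of which would allow up to 3 counts. gst-34 had no counts in embryos and 3, 11, 10 and 7 in larvae, at least 2.88-fold higher against a floor of 3 counts per library. gst-14 had 5, 1, 1 and 4 counts in embryos and 6, 40, 27 and 63 in larvae. These 3 genes were picked after their values were seen. ugt-38 had 0, 1, 0 and 0 counts in larvae but was listed at 0.0787 to 0.933 TPM there, so its counts and its TPM do not describe the same reads.

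In all, 27 of the 111 members overlap another annotated gene, and 6 of those are among the 32 named by rule. The libraries keep the strand, but whether the counting used it is not given in the sources used here, so reads of a member and of a gene on the other strand may not be separated. ugt-59 lies beside sir-2.1, the gene mutated in this strain, and overlaps its end on the other strand. It had 173, 68, 66 and 89 counts in embryos and 63, 42, 12 and 22 in larvae, and its log2 fold change was -0.62 ± 0.47 (edgeR, adjusted p = 0.248). With no wild-type library here, whether the allele affects ugt-59 was not tested.

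Other genes of the conjugation pathway were read from the lists of companion genes, beside the 36.9% of all genes called higher and 37.2% called lower with TMM. Of 5 GST relatives outside the naming rule (the omega and kappa classes), 4 were tested and all 4 rose in TMM-scaled counts, with gsto-3 (0.68) turning to -0.14 in log2(TPM + 1). gsto-3 and gstk-1 were called on neither of the other scales. gsto-1 went from 23, 11, 5 and 4 counts in embryos to 300, 308, 197 and 346 in larvae, a log2 fold change of 5.60 ± 0.37 (edgeR, adjusted p = 1.21e-07). The 3 genes that supply glutathione all rose slightly in TMM-scaled counts. They are gcs-1 (0.62), the ligase of the first and rate-limiting step, gss-1 (0.61), the synthetase, and gsr-1 (0.83), the reductase. In log2(TPM + 1) their values were -0.18, -0.24 and -0.01, and none was called with library totals, so their rise was called on neither of the other scales. These TPM values, and that of gsto-3, lay above the median of all genes tested on that scale (-0.49).

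Of 6 genes for UDP-sugar supply, 2 rose, 1 fell and 3 did not pass. K08E3.5, annotated rml-1, rose by 0.90 and gale-1, the UDP-galactose epimerase, by 0.46 on the log2 scale, whereas the Golgi nucleotide sugar transporter gene sqv-7 had a value of -1.34. sqv-4, the UDP-glucose dehydrogenase, was at 0.32 (adjusted p = 0.224). In log2(TPM + 1) limma called sqv-1 (adjusted p = 0.0059) and D1005.2 (0.0255) lower. Of 8 mrp genes, ABC transporters of the class that exports glutathione and sugar conjugates, 6 rose, 1 fell (mrp-6, -0.64) and 1 did not pass (mrp-5). The largest rises were mrp-2 at 2.68 ± 0.20 (adjusted p = 2.86e-07) and mrp-8 at 2.06 ± 0.20 (adjusted p = 2.06e-06). In log2(TPM + 1) mrp-1, mrp-4 and mrp-7 had negative values (-0.29, -0.39 and -0.26), as did gale-1 (-0.39). Of these, limma called only mrp-4 lower (adjusted p = 0.049). Each of these negative values lay above the median of all genes tested on that scale (-0.49). With library totals mrp-5 was called lower (-0.81, adjusted p = 0.000407), and of the 6 that rose only mrp-2 and mrp-8 kept the call.

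Of 8 regulators, 1 rose, 3 fell and 4 did not pass in TMM-scaled counts. The nuclear receptor gene nhr-8, which acts in resistance to toxins, rose by 1.31 ± 0.23 (edgeR, adjusted p = 0.000254). The aryl hydrocarbon receptor gene ahr-1 (-1.07), the intestinal GATA factor gene elt-7 (-0.68) and the foregut factor gene pha-4 (-1.57) were lower in larvae. skn-1 itself was at 302, 263, 288 and 209 CPM in embryos and at 228, 288, 220 and 265 CPM in larvae, with a log2 fold change of -0.09 ± 0.17 (adjusted p = 0.653). Its inhibitor gene wdr-23 (0.10) and the Mediator subunit gene mdt-15 (-0.13) did not pass the test either. With library totals alone all 4 uncalled regulators were called lower, skn-1 at -0.58, wdr-23 at -0.39, mdt-15 at -0.62 and elt-2 at -0.74. On that scale 48.7% of all genes tested were called lower, and their median was -0.53. Against that median wdr-23 was higher and skn-1, mdt-15 and elt-2 were lower.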

How the data were processed

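Poly(A) RNA of 4 embryo and 4 larvae samples of strain VC199 was sequenced by the study as single-end, strand-marking libraries, aligned with Tophat to WS220 and counted with HTSeq. The submitters' processing notes name CASAVA 1.8, HTSeq 0.6.1p1, Cufflinks 2.2.0 and DESeq2. The raw counts per gene deposited by the authors were used for the main tests, after 5 classes of reads that name no gene were set aside (no-feature reads were 3.26 to 6.06% and ambiguous reads 0.861 to 1.07%). The TPM values were made by the authors and used for levels and for an alternative test, and 14 TPM columns of libraries outside the labelled samples were not used. The deposited tables of the authors' own strain comparisons (fold changes and p-values) were used only for their pairing of gene IDs with names. Positions are in WS220, with 1 added to starts counted from 0. Strand, gene type and overlaps came from a WBcel235 annotation.

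Samples were grouped by the labels. Genes were filtered with filterByExpr, leaving 13571, scaled with TMM and tested with glmQLFit and glmQLFTest in edgeR 4.0.16 (R 4.3.3), stage being the only term. Adjusted p is Benjamini-Hochberg over all genes tested, with a threshold of 0.05. The procedure was tested on simulated data. The study used DESeq2, which was run as an alternative (1.42.0), beside limma 3.58.1 on log2(TPM + 1) and log2(TPM + 0.1) over genes with a mean of at least 0.1 TPM, library totals in place of TMM, relative log expression factors, no filter, a filter of 1 CPM in 4 libraries, a threshold of 0.01, a test against a 2-fold change, a replicate block and leaving out each of the 8 libraries. The summed levels were recomputed without the most abundant member, in CPM and, chosen after seeing the data, with medians of libraries. A member with no library of a stage above 3 counts was given a fold bound against 3 counts in each library. Depth was 13687095 to 31292935 gene counts per library, and the biological coefficient of variation was 21.9% in embryos and 30.7% in larvae. Floors cover counting error only. Standard errors are those of the log2 fold change, computed from it and the F statistic of the edgeR test, so they include spread between replicates.

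The genes named were, in each family, the 6 largest called rises and 6 largest called falls without overlap of stages in CPM, the 4 highest mean TPM in each stage, and gst-1, gst-4, gst-5, gst-10 and gst-42. The members, lists and markers were chosen with earlier results of these data known. One listed intestine marker, opt-2, was not matched. Promoter motifs, protein lengths and protein identity were not analysed here.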

Additional observations from a re-analysis of the deposited data

Results flagged for a closer look

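The groups examined were 68 sets of 4 libraries, 2 stages for each of the 32 named genes and for the summed TPM of each family. Of these, 8 held 1 library far from the other 3 by Dixon's criterion. The nominal rate of about 1 in 20, or 3.4 groups, assumes independent normal values, so no excess is read from it. Larvae replicate 4 was the library in 3 of the 8. It had 18.99 CPM of gst-19 against 2.14 to 2.85 CPM in the other larvae, 77.5 CPM of gst-42 against 27.0 to 34.8 CPM, and 29.8 CPM of ugt-50 against 45.8 to 47.8 CPM. Embryo replicate 3 had 49.2 CPM of gst-42 against 29.0 to 29.3 CPM in the other embryos, and larvae replicate 2 had 15.3 CPM of ugt-8 against 6.77 to 7.94 CPM in the other larvae. The other 3, which meet the criterion at any value, came from genes near 0 in embryos, where a single library had reads. These were gst-41 in embryo replicate 1 (0.0975 CPM from 4 counts), ugt-30 in embryo replicate 1 (0.0244 CPM from 1 count) and ugt-36 in embryo replicate 4 (0.0450 CPM from 1 count).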

How the results depend on the processing

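More of the called members kept their direction than kept their call in every fit. Of 72 called members, 41 were called in the main and all alternative fits, 6 in every fit that tested them, 10 lost the call when some library was left out, and 7 changed sign in some fit. Limma on log2(TPM + 1) and on log2(TPM + 0.1) called 8397 and 8414 genes lower, with 9 ugt and 6 gst genes among them in both. Testing against a 2-fold change left 3174 genes higher and 2739 lower, with 2 ugt and 1 gst genes lower. The ugt median log2 fold change was 2.01 with 1 CPM in 4 libraries, 2.02 with no filter, 1.79 with library totals, and 1.05 and 0.60 in log2(TPM + 0.1) and log2(TPM + 1). The gst median was 0.97, 1.41, 0.67, 0.50 and 0.19 under the same settings in that order. With no filter the ugt median was thus lower than in the main fit (2.29) and the gst median higher (1.19). With single libraries left out, the ugt median ran from 1.98 to 2.45, the gst median from 0.92 to 1.64, ugt genes higher from 40 to 45 and lower from 4 to 8 (8 without larvae replicate 1), gst genes higher from 17 to 23 and lower from 2 to 3, the ratio of summed TPM from 1.14 to 1.36 for ugt and from 0.947 to 1.27 for gst. The ugt ratio was 1.80 in CPM of library totals and 1.69 without ugt-50.

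Genes near 0 and uncalled with TMM changed sign, and so did gst-1. With library totals the values were -0.23 for gst-4, -0.16 for gst-42, -0.42 for gst-7 and -0.39 for ugt-23. In log2(TPM + 0.1) and log2(TPM + 1) they were -0.13 and -0.13 for gst-1, -0.46 and -0.45 for gst-20, -0.24 and -0.23 for gst-4, -0.61 and -0.59 for gst-42, -0.99 and -0.98 for gst-7, and -0.74 and -0.71 for ugt-23. With single libraries left out, gst-7 ran from -0.56 to 0.32, gst-42 from -0.11 to 0.53 and ugt-23 from -0.030 to 0.24. The cause was not tested. Samples of the same number did not deviate together (correlations of -0.146, -0.194, 0.0747 and -0.0699, own number best in 1 of 4). The labels do not say whether such samples share an origin. With the replicate block, 43 ugt and 18 gst genes were higher, 5 and 3 lower, of 4806 and 4962 genes, and gst-7 was at -0.14. Depth limited the genes under about 3 counts per library, for which only bounds are given.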
